A study of Vanessa cardui with 14 samples.

Results

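Gene expression at the onset of red and orange pigment in the hind wing was compared in Vanessa cardui, the painted lady, with 4 of the 14 RNA libraries of the study. The labels set the group of each library. Of these 4, 2 came from hind wings of pupae 5 d after pupation, before pigment, and 2 from hind wings of pupae in which ommochrome pigment had begun to show. The other 10 libraries, 2 in each of 5 groups, were hind wings of last instar larvae, of pupae at 72 h after pupation and of pupae at the melanin stage, and red and black regions of pupal forewings. All animals were labelled only as V. cardui, with no genotype, line, sex or drug treatment given, and their first instar caterpillars were kept at 28 °C with 16 h of light and 8 h of dark. Stages after 5 d were told by the visible pigment, and their age was not given. The forewing regions are labelled melanin stage, although the treatment protocol says that they were dissected during ommochrome development. The labels do not say how many wings a library holds, nor whether replicates are different animals. The p-values reflect the spread among these libraries alone, and that spread may be technical.

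Ommochromes are the red, orange and brown pigments of many insect eyes and of the wing scales of nymphalid butterflies. They are made from the amino acid tryptophan by way of kynurenine and hydroxykynurenine, through enzymes known in Drosophila as vermilion and cinnabar, and precursors are carried into pigment granules by transporters of the white and scarlet family. Each wing scale is the cuticle of a single cell, and the pupal wing combines scale growth, deposition of cuticle and the filling of scales with pigment.

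Expression was deposited as FPKM (fragments per kilobase of gene, scaled by the number of mapped fragments) for 13876 genes of a transcriptome assembled without a genome. The identifiers name an assembled component and a gene within it. The table pairs them with no gene name, and 0 of 13876 matched the RefSeq gene table of the species (assembly ilVanCard2.1), so the enzymes above, the other pathway lists and the markers of tissue and cell type could not be looked up, and no sequence is shown. The label of the tissue could not be checked against its markers for the same reason. Total reads are unknown. The relative depth, read from the smallest steps between low values, was 1.28 in 5 d replicate 2, 1.49 in ommochrome replicate 1 and 1.77 in ommochrome replicate 2, taking 5 d replicate 1 as the unit. Summed FPKM were 624699 and 573540 at 5 d and 560033 and 482546 at the ommochrome stage. The deeper ommochrome libraries listed 2038 and 1931 genes at 0, against 2663 and 2707 at 5 d. Between replicates, log2 differences had an SD of 0.648 at 5 d and 0.439 at the ommochrome stage, and it reached 1.19 at 72 h.

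About 1 in 8 tested genes changed as pigment appeared (12.7%, or 1373 of 10780). Of these, 937 were called higher at the ommochrome stage (8.69% of the tested genes) and 436 were called lower (4.04%). In the values as deposited, the rises were many and moderate, with a median log2 change of 1.57 and a middle range of 1.14 to 2.25. The falls were fewer in these values, though not under every scaling, and deeper, with a median of -2.09 and a middle range of -3.3 to -1.48. A change of at least 5 log2 was measured for 23 of the genes called higher and for 46 of those called lower. In bulk wing RNA, fewer cells of a type and less RNA per cell cannot be told apart.

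Genes were called with limma on log2(FPKM + 1) at a Benjamini-Hochberg adjusted p under 0.05, in a model of all 7 groups, a scale on which the changes of low genes come out too small. Both ommochrome libraries lay above both 5 d libraries for all 937 genes called higher and below them for all 436 called lower, beside 43.3% and 16.1% of all tested genes. The balance of directions depended on how libraries were scaled. The median tested gene lay 0.243 log2 higher at the ommochrome stage as deposited and 0.006 higher after median-of-ratios scaling, which called 656 genes higher (6.09%) and 725 lower (6.73%). Quantile normalization called 794 higher and 711 lower, and equal FPKM totals called 1712 and 418. Under all 5 scalings 636 genes were called higher and 404 lower.

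**Figure D1:**
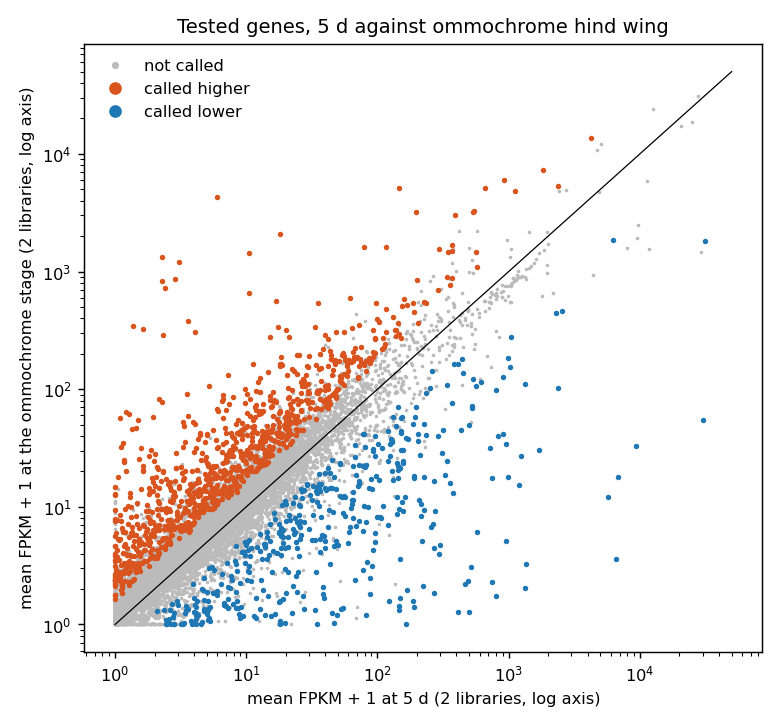
Mean FPKM + 1 of each tested gene at 5 d (x axis) and at the ommochrome stage (y axis), both on log axes, with 2 libraries per mean. Orange points are the 937 genes called higher, blue points the 436 called lower, grey points the others, and the line marks equal values. The blue points at the lower right are abundant 5 d transcripts with far lower values at the ommochrome stage.

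Small changes could be missed with this number of libraries. In simulated data with the spread of these genes, the model recovered 0% of changes of 1 log2, 71% of changes of 2 log2 and 80% of changes of 3 log2, with 200 changed genes at each size among 10780. The measured comparison held more calls than that, which loosens the threshold of the adjusted p, and it did call smaller changes, since 785 of the 937 rises and 406 of the 436 falls were of at least 1 log2. The simulated shares are thus not its own rate of recovery. A gene outside the lists is not shown to be steady. The number of calls also rested on single libraries and on the other groups, which lend their spread to the test. It was 551 without ommochrome replicate 1, 731 without ommochrome replicate 2, 846 when only hind wing libraries were fitted and 557 when only the 4 libraries compared were fitted.

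The transcripts that lost most FPKM were the leading transcripts of the wing before pigment. Gene c19797_g1 had the highest mean of all genes at 5 d, with 35026 and 27908 FPKM in the 2 libraries. At the ommochrome stage it was at 1125 and 2491 FPKM (log2 change -4.22, SE 0.664, limma adjusted p = 0.00259). Both later libraries lay far below both earlier ones, and they also differed from each other by more than the 5 d libraries did in proportion. Melanin hind wings held 1471 and 585 FPKM of this transcript, and it was at 5.66 and 8.1 in the larva, at 6.53 and 17.8 at 72 h and between 1.43 and 10.3 in the 4 forewing libraries. It thus remained above its 72 h level in melanin hind wings (log2 change 6.29, adjusted p = 7.38e-05), while its difference between forewing and 72 h did not pass the test (log2 change -0.79, SE 0.575, adjusted p = 0.31). Its fall at the ommochrome step was not called when the 4 libraries were fitted alone (adjusted p = 0.0758).

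Gene c27349_g2 was the next most abundant at 5 d, with 28779 and 31843 FPKM. It stood at 22.4 and 84 FPKM at the ommochrome stage (log2 change -9.41, SE 1.1, limma adjusted p = 0.000422). Both ommochrome libraries lay far below both 5 d libraries, and they differed from each other more than the 5 d libraries did in proportion. In larval and 72 h libraries it was at 3.13 to 27.3 FPKM, in melanin hind wings at 203 and 17.6 and in forewing regions at 0.12 to 0.49. Melanin replicate 1, with the higher of these 2 melanin values, listed 3641 genes at 0, the most of the 14 libraries. The gene shares its component with 3 other genes, so reads could be divided among similar sequences.

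Both genes that gained most FPKM were already abundant before pigment. Gene c22150_g1 was at 4520 and 4015 FPKM at 5 d and at 14075 and 13137 at the ommochrome stage (log2 change 1.67, SE 0.329, limma adjusted p = 0.00876). Replicates lay close together in both groups. The gene had the highest mean of all genes in the larva, with 13776 and 12088 FPKM, ranked 86 at 72 h with 953 and 1855, and ranked 5 at the ommochrome stage. Melanin hind wings held 12790 and 13571 FPKM, close to the ommochrome values, and forewing regions 20868 to 28182. In the values as deposited, larval, ommochrome and melanin hind wings thus spanned a narrow range above the 72 h and 5 d libraries. This depended on scaling, since the larval libraries had median-of-ratios factors of 1.8 and 1.84, against 0.687 to 1.15 in the others, and all larval levels are lower on that scale. As a share of summed FPKM, c22150_g1 made up 1.65% and 1.52% of the larval libraries, 2.51% and 2.72% of the ommochrome libraries and 2.17% and 2.16% of the melanin libraries.

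Gene c24676_g3 was at 2237 and 1415 FPKM at 5 d and at 7370 and 7188 at the ommochrome stage (log2 change 2.03, SE 0.444, limma adjusted p = 0.0149). Unlike c22150_g1 it was low in the larva, at 142 and 69.7 FPKM, and it was at 1224 and 627 at 72 h. It was at 6928 and 10516 in melanin hind wings. Its highest values were in the forewing, with 42694 and 29625 FPKM in red and 19514 and 22266 in black regions, where it ranked 1 and 5 among all genes. The difference between black and red did not pass the test (log2 change -0.77, SE 0.444, adjusted p = 1). Each of these rising genes shares its component with other genes of the table. The call of c22150_g1 was lost without ommochrome replicate 1 (adjusted p = 0.0662) and that of c24676_g3 without ommochrome replicate 1, ommochrome replicate 2 or 5 d replicate 2 (adjusted p = 0.0926, 0.0704 and 0.0973). Both were lost when hind wings alone were fitted (adjusted p = 0.0559 and 0.0586) and when the 4 libraries alone were fitted (0.192 and 0.111).

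**Figure D2:**
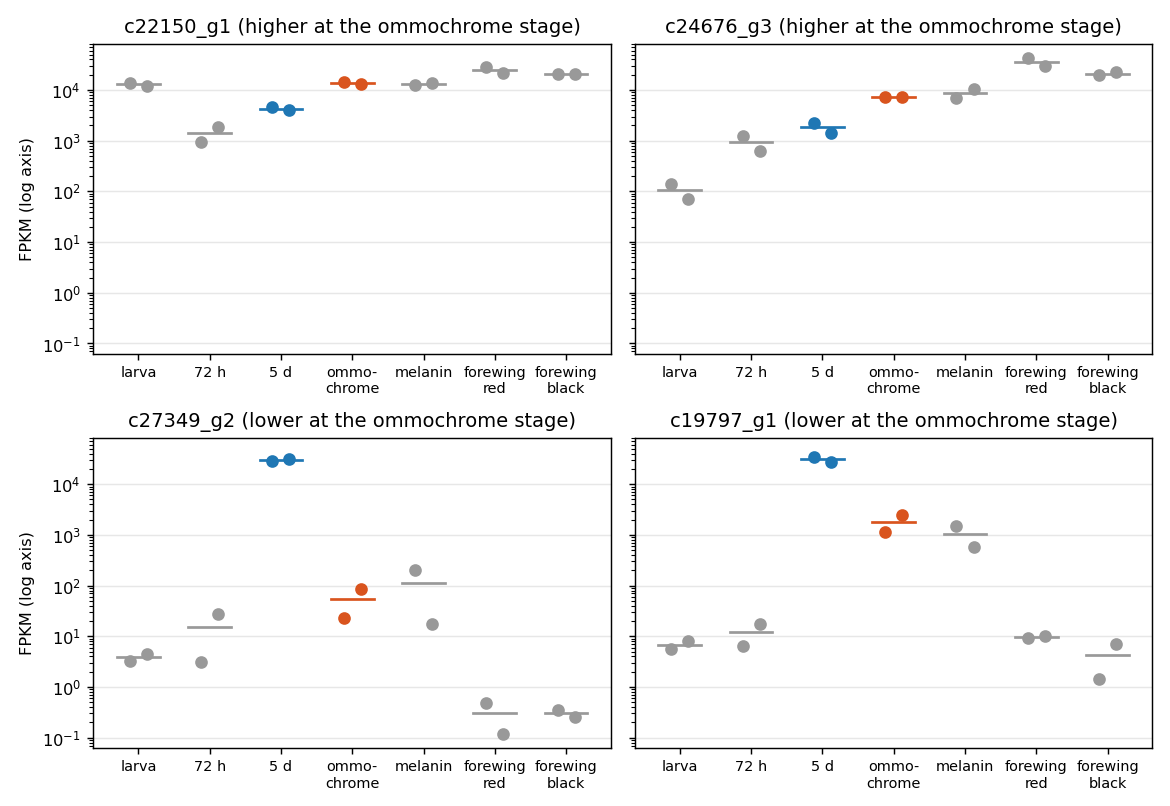
FPKM on a log axis of the 2 genes with the largest gain and the 2 with the largest loss in mean FPKM, in all 14 libraries; each point is 1 library, each line the mean of 2, with 5 d in blue and the ommochrome stage in orange. Genes c27349_g2 and c19797_g1 have their highest values at 5 d and lie far lower in every other group, while c22150_g1 and c24676_g3 peak in the forewing regions.

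Beyond these examples, the 10 largest losses and the 10 largest gains in FPKM differed in when and where else the genes were on. All 10 genes of largest loss had their highest group mean at 5 d, and all 10 were under 20 FPKM in both larval libraries. They were chosen by the size of the 5 d mean above the ommochrome mean, which by itself favours a peak at 5 d. At 5 d they ranged from 1996 to 35026 FPKM in replicate 1 and from 1353 to 31843 in replicate 2. At the ommochrome stage their medians were 57.5 and 99.9 FPKM. In forewing regions 8 of them were under 11 FPKM in all 4 libraries. At 72 h the replicates disagreed on some, with 8 under 100 FPKM in replicate 1, 7 in replicate 2, and a highest value of 2610 in the former and 4690 in the latter.

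The 10 genes of largest gain had medians of 769 and 763 FPKM at 5 d and 6004 and 4117 at the ommochrome stage. At 5 d they ranged from 5.96 to 4520 FPKM in replicate 1 and from 4.05 to 4015 in replicate 2, so that not all were abundant before pigment. All 10 were at 1000 FPKM or more in both melanin libraries, and 9 were so in all 4 forewing libraries. Of these genes, 8 had their highest mean of the 7 groups in a forewing region. Only 3 of them were at 1000 FPKM or more in both larval libraries, and 4 were under 100 FPKM in every larval and 72 h library.

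The called genes held very different shares of the RNA before and after this step, and a few genes carried much of the loss. Genes called lower held 25.3% and 27.4% of summed FPKM in the 5 d libraries and 1.85% and 2.51% in the ommochrome libraries. The 10 genes of largest loss alone made up 16.5% and 18.2% of the 5 d libraries. Genes called higher held 5.29% and 5.07% at 5 d and 27.6% and 25.6% at the ommochrome stage, where the 10 genes of largest gain made up 11.6% and 10.6%. Since the calls chose these genes, the shares at these stages are a description. In libraries that bear on neither side of the comparison, the genes called higher held 24.5% and 29.8% of melanin hind wings and 36.5% to 39.4% of forewing regions, against 8.98% and 9.27% in the larva and 4.27% and 4.11% at 72 h. Genes called lower held 1.43% to 2.07% of the melanin hind wing and forewing libraries, and 5.78% to 8.15% of the larval and 72 h libraries.

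The most abundant genes held a smaller share of the RNA at the ommochrome stage. The 10 leading genes of each library held 33.9% and 38.4% of summed FPKM at 5 d and 28.2% in both ommochrome libraries. Genes c19797_g1 and c27349_g2 alone held 5.61% and 4.61% of 5 d replicate 1 and 4.87% and 5.55% of 5 d replicate 2. FPKM are relative, so the loss of such transcripts raises the values of all others, and the part of this in the upward shift of the median gene was not tested.

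**Figure D3:**
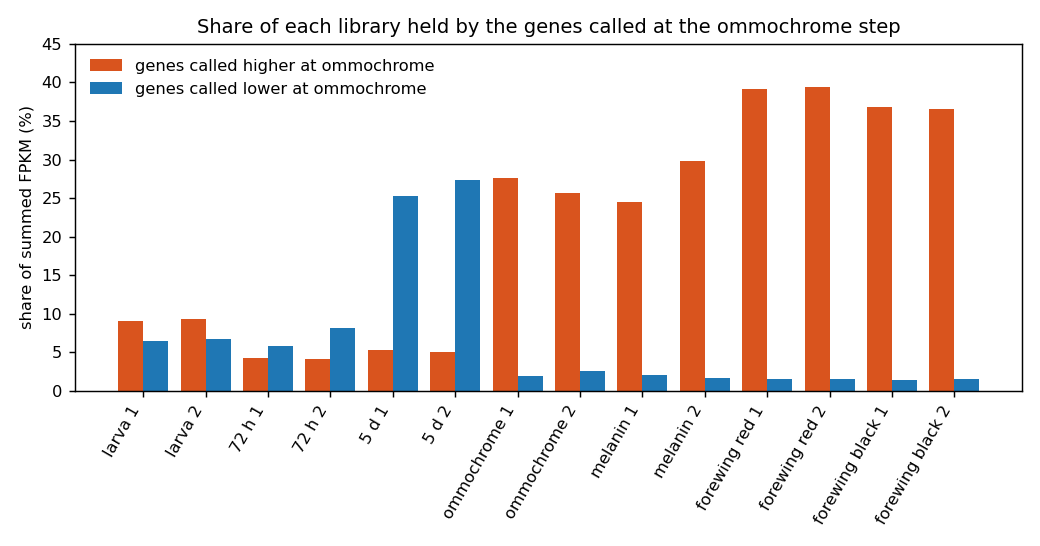
Share of summed FPKM (%) held in each of the 14 libraries by the 937 genes called higher (orange) and the 436 genes called lower (blue) at the ommochrome step. Blue bars exceed 25% in the 5 d libraries alone, and orange bars are above 24% in the ommochrome, melanin and forewing libraries and below 10% in the others.

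The genes called higher kept high levels in the later and pigmented samples. Their median was 6.13 and 4.39 FPKM at 5 d and 23 and 20.4 FPKM at the ommochrome stage. It was 21.4 and 22.8 FPKM in melanin hind wings and 16.6 to 20.2 in forewing regions. Medians of all tested genes were 4.62 to 7.12 FPKM in the melanin and forewing libraries. Before 5 d the genes called higher were not rare transcripts, with medians of 8.91 and 8.74 FPKM in the larva and 4.57 and 4.33 at 72 h, but 167 of them (17.8%) were under 1 FPKM in every larval and 72 h library, against 7.13% of all tested genes. Another 520 (55.5%) were at 5 FPKM or more in both larval libraries, against 60.8% of all tested genes.

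The genes called lower had medians of 40.9 and 31.2 FPKM at 5 d and 4.86 and 5.02 FPKM at the ommochrome stage. Their medians at 72 h were 8.75 and 9.11, in the larva 8.84 and 8.21, in melanin hind wings 7.05 and 5.64 and in forewing regions 2.95 to 3.69 FPKM. They were thus below their 5 d medians in each of these 10 libraries. The calls chose these genes for 5 d values above those at the ommochrome stage, which by itself favours high 5 d medians. Among the 5 groups that took no part in the comparison, the larva gave the highest mean for 36.2% of the genes called lower and 72 h for 35.3%, against 55.5% and 14% of all tested genes. For the genes called higher, melanin hind wings gave the highest mean for 32.6%, red regions for 30.1% and black regions for 10.1%. Over all tested genes these shares were 15.4%, 11.2% and 3.91%. The larva gave it for 24.7% of the genes called higher and 72 h for 2.56%, against 55.5% and 14% of all tested genes. All these shares rest on the values as deposited, and the larval libraries had the largest median-of-ratios factors (1.8 and 1.84).

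**Figure D4:**
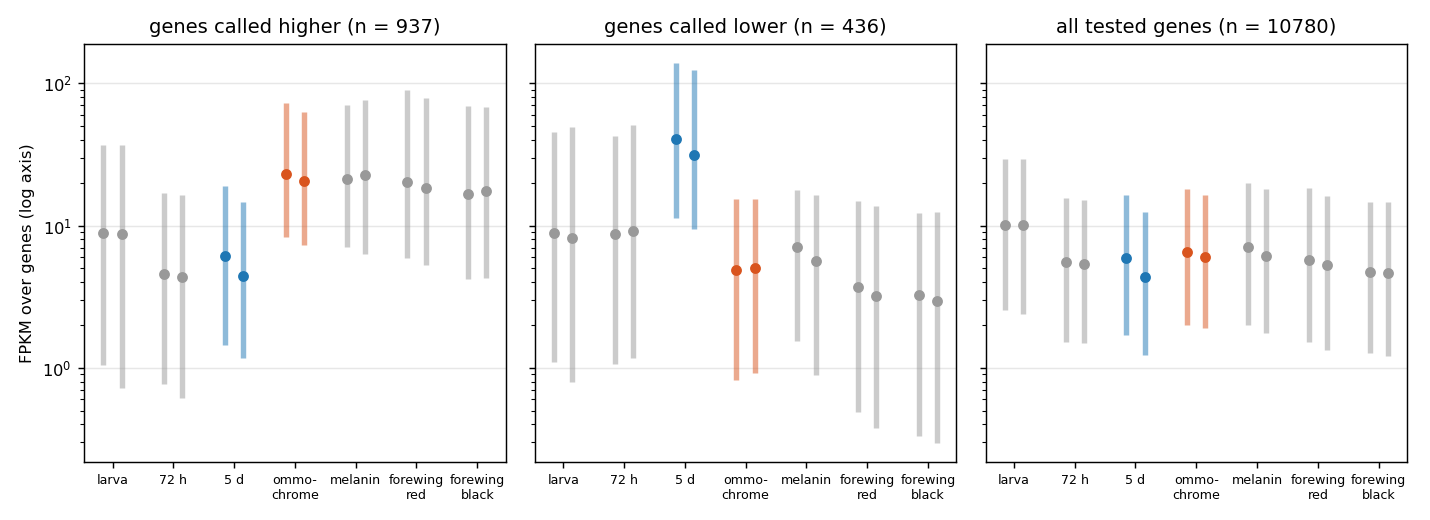
Median FPKM (points) and middle range over genes (bars, lower to upper quartile) in each of the 14 libraries, on a log axis, for the genes called higher, the genes called lower and all tested genes; 5 d is blue and the ommochrome stage orange. Medians of the genes called higher lie between 16.6 and 23 FPKM in the ommochrome, melanin and forewing libraries, and those of the genes called lower are highest at 5 d.

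Some genes went between silence and clear expression. A gene was counted as switched on at under 1 FPKM in both 5 d libraries and at least 5 FPKM in both ommochrome libraries, and as switched off for the reverse. By this count 43 genes were switched on and 43 were switched off, and 39 and 40 of them were also called by limma. Of the genes called higher, 27 were listed at 0 in both 5 d libraries, and of those called lower 12 were listed at 0 in both ommochrome libraries. The 5 d libraries had the lower relative depth and listed 2663 and 2707 genes of the table at 0, against 2038 and 1931 at the ommochrome stage. The part of depth in these counts was not tested. Switched-on genes reached modest levels, with a median of 13.1 FPKM, a range of group means from 5.46 to 343 and 2 genes at 100 FPKM or more. Switched-off genes had come from higher levels, with a median of 26.1 FPKM at 5 d, a range from 5.71 to 804 and 10 genes at 100 FPKM or more.

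Switched-on genes were often still on later in the hind wing. They were chosen for at least 5 FPKM in both ommochrome libraries, a level met by 52.8% of all tested genes. The shares of all tested genes are thus no measure of how many genes stay on after the ommochrome stage. Of the 43, 28 were at 5 FPKM or more in both melanin libraries (65.1%, against 51.2% of all tested genes), and 0 were under 1 FPKM in both (against 12.6%). In forewing regions 21 were at 5 FPKM or more in all 4 libraries (48.8%, against 44.6%), 6 were under 1 FPKM in all 4 (14%, against 15.4%), and 4 of those 6 were at 5 FPKM or more in both melanin hind wings. Before the step, 20 were under 1 FPKM in every larval and 72 h library, a level met by 7.13% of all tested genes. A further 9 had been at 5 FPKM or more in both larval libraries (20.9%, against 60.8% of all tested genes). Of these, 4 were under 1 FPKM in both 72 h libraries, a pattern of 1.22% of all tested genes. These 4 were on in the larval disc, off in the young pupa and on again with pigment. In 10 of the 43 genes the ommochrome mean was the highest of the 7 group means.

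Switched-off genes were of more than 1 kind. Of the 43, 18 were at 5 FPKM or more in both larval libraries (41.9%, against 60.8% of all tested genes). Of these 18, 14 were at 100 FPKM or more, and for 15 of the 43 the larval mean exceeded that at 5 d. In contrast, 10 were under 1 FPKM in every library other than those of 5 d. In forewing regions 39 were under 1 FPKM in all 4 libraries (90.7%, against 15.4% of all tested genes) and 1 was at 5 FPKM or more in all 4. In melanin hind wings 18 were at 1 FPKM or more in replicate 1 and 4 in replicate 2. The former library also listed the most genes at 0 of all 14 (3641, against 2368 in replicate 2), and the part of library quality in this difference was not tested. The counts of 43 depend on the levels chosen, and with 2 FPKM in place of 5 they were 137 on and 94 off.

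The step was then set beside comparisons that share no library with it. Melanin hind wings and forewing regions were each compared with the unpigmented 72 h hind wing in the same model, which shares each gene's estimate of spread between comparisons. Of the 937 genes called higher at the ommochrome step, 635 were also higher in melanin hind wings than at 72 h (67.8%, against 18.8% of all tested genes), which is 31.4% of the genes called higher there. In the forewing regions 599 were higher than at 72 h (63.9%, against 18.5% of all tested genes), which is 30% of the genes called higher there. Both held for 507 genes (54.1%, against 12% of all tested genes). Called in the opposite direction were 23 genes in melanin hind wings (2.45%, against 10.4% of all tested genes) and 42 in forewing regions (4.48%, against 20.1%).

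The falls were shared less fully. Of the 436 genes called lower, 137 were also lower in melanin hind wings than at 72 h (31.4%, against 10.4% of all tested genes, and 12.2% of the genes called lower there). In forewing regions 185 were lower than at 72 h (42.4%, against 20.1%, and 8.56% of the genes called lower there). Higher than at 72 h were 62 of the 436 in melanin hind wings (14.2%, against 18.8% of all tested genes) and 48 in forewing regions (11%, against 18.5%). The difference in sharing between rises and falls was not tested. For the genes called under all 5 scalings the corresponding shares were 75.2% and 68.7% of 636 rises and 32.2% and 41.6% of 404 falls.

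The median gene called higher lay 1.63 log2 above 72 h in melanin hind wings and 1.39 above it in forewing regions, against 0.08 and -0.11 for all tested genes. For the genes called lower these medians were -0.29 and -0.56. Switched-on genes moved further, with medians of 3.13 and 2.38. Of these 43, 33 were called higher than 72 h in melanin hind wings (76.7%, against 18.8% of all tested genes) and 27 in forewing regions (62.8%, against 18.5%). Switched-off genes had medians of -0.76 and -1.37. Called lower were 14 of 43 in melanin hind wings (32.6%, against 10.4% of all tested genes) and 20 in forewing regions (46.5%, against 20.1%). The 72 h libraries differed most between replicates (SD 1.19 log2), and the model gives all groups of a gene the same spread.

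Colour within the forewing gave another comparison with no shared library, though in the same model. Each gene's estimate of spread was thus shared with the ommochrome step, and the part of this sharing in the overlap below was not tested. Between black and red regions 81 of the tested genes were called (0.751%). Black exceeded red for 22 (0.204%), and red exceeded black for 59 (0.547%). Genes called higher at the ommochrome step supplied 32 of these 81, with 9 of the 22 genes higher in black and 23 of the 59 higher in red. This was 3.42% of the 937 genes, against 0.751% of all tested genes and 0.498% of the genes not called higher. Among genes with a mean of at least 10 FPKM over all libraries the shares were 3.34% of 598 called higher and 0.315% of 4132 not called higher. The genes called lower supplied 2 genes, both higher in red.

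These 32 genes differed between the regions by 1.21 to 4.01 log2, with a median absolute difference of 2.51. Of the 32, 15 were under 1 FPKM in every larval and 72 h library, a level met by 17.8% of the 937 genes called higher and 7.13% of all tested genes. In both melanin hind wing libraries 23 were at 5 FPKM or more, a level met by 51.2% of all tested genes. Of the 937 genes called higher, 81.9% reached it in melanin replicate 1 and 79.9% in melanin replicate 2, each library taken alone. Over all 937 genes called higher the median difference between black and red was -0.19 log2, near the -0.15 of all tested genes. Position in the wing and colour changed together and cannot be told apart. The counts rested on few libraries. Without black replicate 1, black replicate 2 or red replicate 1 32, 25 or 32 genes were called in all.

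Changes were more frequent among abundant genes. By mean FPKM over all 14 libraries, the share called higher was 3.69% of 1301 genes under 1 FPKM, 6.13% of 4749 genes from 1 to 10, 10.9% of 4010 genes from 10 to 100, 22.5% of 600 genes from 100 to 1000 and 20.8% of 120 genes of 1000 or more. The share called lower was 2.84%, 2.23%, 5.31%, 12.2% and 5.83% in the same order. Among the 120 most abundant genes the median change was -0.26 log2, while it was 0.04 to 0.38 in the other classes. With median-of-ratios scaling the shares called higher and lower were nearly equal under 1 FPKM (3.54% and 3.38%), from 1 to 10 (4.4% and 4.25%) and from 100 to 1000 (16.8% and 15.7%). Between 10 and 100 FPKM falls outnumbered rises (9.25% and 6.93%). Among the 120 most abundant genes 22 rises stood against 14 falls, in place of 25 against 7 as deposited. Low values carry more counting error, and its part in these shares was not tested.

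**Figure D5:**
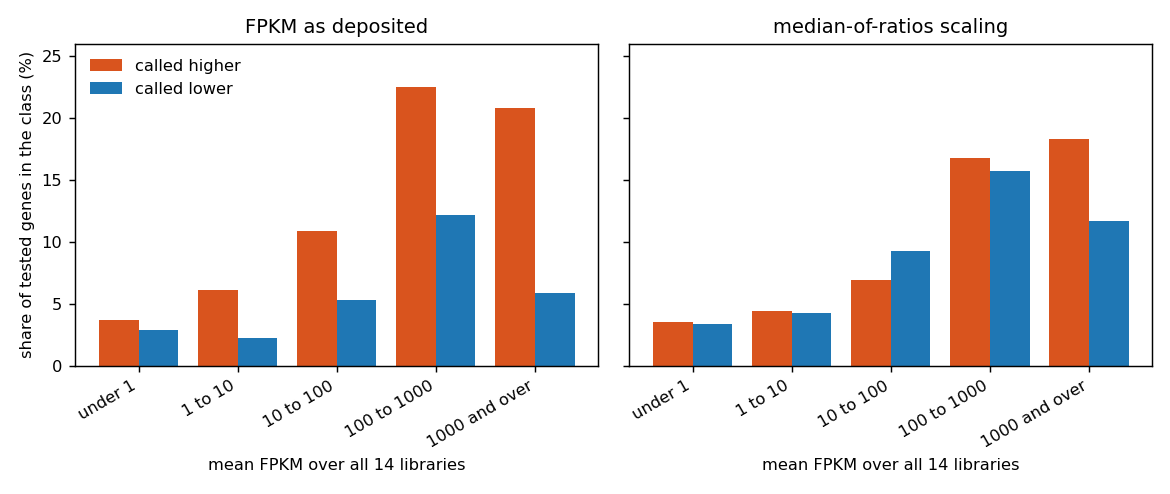
Share (%) of tested genes called higher (orange) and lower (blue) at the ommochrome step in 5 classes of mean FPKM over all 14 libraries, in the values as deposited (left) and after median-of-ratios scaling (right). In both panels the classes from 100 FPKM upward hold the largest shares called higher.

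The 1373 called genes came from 1257 components of the assembly, and 317 of the genes called higher and 153 of those called lower shared a component with another gene of the table. A gene called higher and a gene called lower fell in the same component in 5 of these components. The values of genes that share a component are less certain, since reads could be divided between them.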

How the data were processed

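Per the labels' protocols, libraries of poly-A RNA were read in pairs of 150 bp on an Illumina sequencer. Bowtie is named, without a version, per the submitters' processing notes. The values are FPKM deposited by the authors, 1 column per library. The assembler, the FPKM program and any scaling between libraries were not given in the sources used here.

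Genes reaching 1 FPKM in 2 or more of the 14 libraries (10780) were fitted as log2(FPKM + 1) with limma 3.58.1 in R 4.3.3, with 7 group means, no covariate and a spread prior that follows the mean (7 residual and 2.88 prior degrees of freedom). Tests were two-sided, with p-values adjusted by Benjamini-Hochberg over the 10780 genes of each comparison. The comparisons were ommochrome against 5 d, and, sharing no library with it, melanin against 72 h, both forewing regions against 72 h, and black against red.

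Named genes were the 2 rises and 2 falls with the largest difference of mean FPKM among called genes whose groups did not overlap. The comparison, rules and lists were chosen with earlier results of these data known. Pathway and marker lists could not be applied without gene names.

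The model was tested on simulated data. Relative depth came from ratios of values near 0.1 to 0.4 FPKM, and recovered 3 of 3 simulated libraries within 0.1 log2. Python 3.11.15, NumPy 2.4.6, pandas 2.3.3 and matplotlib 3.10.9 were used. Alternatives changed the pseudocount, filter, scaling, samples fitted, spread prior, replicate block and libraries left out.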

Additional observations from a re-analysis of the deposited data

How the results depend on the processing

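The directions of the 4 named genes were kept under all 28 alternative settings, with log2 changes of 1.34 to 1.88 for c22150_g1, 1.7 to 2.36 for c24676_g3, -10.33 to -8.48 for c27349_g2 and -4.8 to -3.31 for c19797_g1; c27349_g2 was called under every setting, and the highest limma adjusted p was 0.192, 0.111, 0.0267 and 0.0758 in that order. Of the ommochrome step, equal FPKM totals called 2130 genes, 1712 of them higher. Genes called lower numbered 725 with median-of-ratios scaling and 711 with quantile normalization. Hind wings alone gave 846 genes (573 higher, 273 lower) and the 4 compared libraries alone 557 (305 and 252), both with fewer degrees of freedom. With 1 library left out, the lone library of its group being assumed to vary like the others, the step ranged from 551 to 1989 calls, 334 to 1342 higher and 217 to 647 lower, with 473 higher without 5 d replicate 2. Without ommochrome replicate 1 the split was 334 and 217, and without ommochrome replicate 2 it was 493 and 238. Without both 72 h libraries 1985 genes were called.

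Black and red differed in 53 genes with a filter at 5 FPKM, in 36 with a pseudocount of 0.1 and in 25 to 95 with 1 library left out. The 3 to 10 genes also higher in black and the 8 to 29 also higher in red moved with it. With median-of-ratios scaling, 725 genes were called lower at the step. Of these, 243 were also lower than 72 h in melanin hind wings and 303 in forewings. With quantile normalization they numbered 246 and 315 of 711. In the values as deposited they were 137 and 185 of 436, so these counts grew along with the list of falls. With 1 library left out, rises shared with melanin numbered 270 to 817 and with forewings 236 to 760. Switched-on and switched-off genes numbered 137 and 94 at 2 FPKM, 20 and 27 at 10 FPKM, 24 and 25 with silence set under 0.5 FPKM, and 65 to 88 and 55 to 84 with 1 library fewer to satisfy. The 20 leading genes held 43.1% and 50.2% of the 5 d libraries and 37.8% and 36.3% of the ommochrome libraries. The causes were not tested except where the setting itself gives them.

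With the replicate number as a block 1374 genes were called and no call of a named gene changed. Deviations of same-numbered 5 d and ommochrome libraries correlated at -0.052 over genes. This single value cannot show whether same-numbered libraries share more than a number. Total reads are unknown, so no counting error can be given for low values.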
